A study of Mus musculus with 12 samples.

Results

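Sox9 and 8 further genes of the Sox family were followed in fetal mouse gonads: Sox9, Sox8 and Sox10 of the SoxE group, Sox4, Sox11 and Sox12 of the SoxC group, and Sox5, Sox6 and Sox13 of the SoxD group. They were chosen by name as 3 whole groups of the family, and are 9 of the 30176 gene symbols that the arrays measured, each read by 1 transcript cluster. The samples were whole gonads of E12.5 embryos, freed of the mesonephros, on Clariom D microarrays with 4 arrays per group. The control XY and control XX groups were Amh+/+;Inhbb+/+ testes and ovaries, and the dKO XY group was Amh-/-;Inhbb-/- testes, in which both genes are missing from every cell of the embryo. Per the labels, the parents were Amh+/-;Inhbb+/-. All values are log2 intensities as deposited, so that a difference of 1 is a doubling. Because whole gonads were used, fewer cells of a type and less RNA per cell cannot be told apart.

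Sox proteins bind DNA through an HMG box related to that of SRY, the product of the Y-linked gene that starts testis development. In the XY gonad, SRY and NR5A1 turn on Sox9 in the supporting cells, SOX9 then drives them to become Sertoli cells, and Sox8 and Sox10 encode closely related proteins that can act on the same targets. The SoxC proteins are activators found in progenitor cells of many tissues, and the SoxD proteins, which carry no activation domain of their own, work as partners of other Sox proteins, in cartilage together with SOX9.

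The targeted genes and the supporting-cell markers were first set against the labels. Amh, the Sertoli cell hormone that regresses the Müllerian duct, fell by 5.92 ± 0.43 (log2 fold change ± SE) in dKO XY gonads (adjusted p = 0.000372), and Inhbb, which encodes the activin βB subunit, differed by -0.59 ± 0.18 (adjusted p = 0.035). These p-values and those below are from 1 limma fit to all 12 arrays, adjusted over 65956 transcript clusters. The Inhbb call did not hold on leaving out control XY 2 or 3, or dKO XY 1, 3 or 4 (adjusted p up to 0.0925). Of 6 Sertoli markers, 5 were lower in control XX gonads than in control XY, and of 5 pre-granulosa markers, 4 were higher. That comparison called 1.34% of all clusters lower and 0.608% higher. In dKO XY against control XY gonads, 3 of the 6 Sertoli markers were lower, Amh, Ptgds and Cst9 (median -1.18), where 9.8% of all clusters were. Amh is itself a targeted gene, so its fall says nothing of the other Sertoli markers, and the median includes it. Among those others, Dhh, Dmrt1 and Aard were not called. No pre-granulosa marker was called there. Arrays also differed in a technical measure, signal contrast, which is how far the positive control probe sets lie on average above the negative ones. It lay between 3.70 and 4.44 in control XY, between 2.48 and 3.83 in dKO XY and between 3.21 and 3.65 in control XX arrays. The lowest values were those of dKO XY 3 and dKO XY 1 (2.48 and 2.83). The difference from control XY was -0.96 in dKO XY (exact two-sided permutation p = 0.0571) and -0.66 in control XX (p = 0.0286, the smallest that 4 against 4 arrays allow).

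In the comparison of control XX with control XY gonads, which sets the ovary against the testis, 4 of the 9 genes were lower in the ovary, Sox9, Sox8, Sox11 and Sox6, and none was higher. Over all clusters, 1.34% were called lower and 0.608% higher. The median difference of the 9 genes was -0.51, that of all clusters 0.12. In the comparison of dKO XY with control XY gonads, which asks what the loss of Amh and Inhbb does to the testis, 4 were lower, Sox8, Sox4, Sox11 and Sox12, and none was higher. There, 9.8% of all clusters were called lower and 16.7% higher, and the medians were -0.22 for the 9 genes and 0.17 for all clusters. None of these 4 calls was made without control XY 3, dKO XY 1 or dKO XY 3, when only 0.167%, 0.118% and 0.299% of all clusters were called. None was made after quantile normalization, when 2.74% of all clusters were called. With signal contrast as a covariate limma called 0 clusters, not even that of the targeted Amh, and 2949 had an unadjusted p under 0.05. That setting thus cannot tell the 4 Sox calls from any other call. In the comparison of dKO XY with control XX gonads, 2 of the 9 genes were higher in dKO XY, Sox9 and Sox6, and none was lower, beside 0.0895% of all clusters called higher and 0.126% called lower. Counted by overlap alone, 5 genes had all control XX arrays below all control XY arrays (5.76% of all clusters), 3 had all dKO XY arrays below all control XY arrays (8.24%) and 5 had all dKO XY arrays above all control XX arrays (1.92%). The first 2 comparisons share the control XY arrays, and each shares a group with the third, so the values given side by side are not independent.

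**Figure D1:**
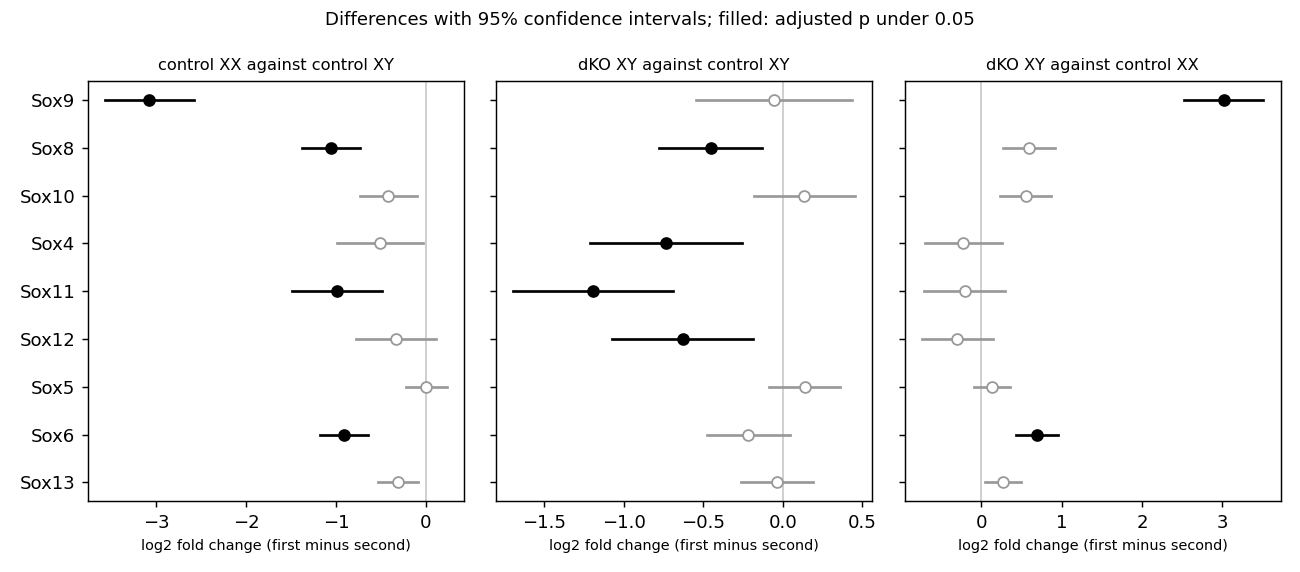
Log2 fold change of each of the 9 Sox genes (points) with its 95% confidence interval (lines) in the 3 comparisons, from the limma fit to 12 arrays; the horizontal scales differ between panels, and filled points have an adjusted p under 0.05. Sox9 stands apart at -3.08 and 3.02 in the 2 comparisons with the ovary and at -0.06 between the 2 XY groups.

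Sox9 read 10.13, 10.68, 10.55 and 10.04 in control XY gonads (replicates 1 to 4). It read 10.04, 10.85, 9.94 and 10.33 in dKO XY gonads. In control XX gonads it read 7.67, 6.91, 7.42 and 7.10. All 8 XY arrays were above all 4 XX arrays, and the XY groups overlapped throughout their ranges. The level fell by 3.08 ± 0.23 in control XX against control XY gonads, 8.43-fold (95% confidence interval 5.99 to 11.9, adjusted p = 3.27e-05), the 17th largest decrease among the 30176 symbols. Against control XX gonads, dKO XY gonads were higher by 3.02 ± 0.23 (adjusted p = 0.000152), the 4th largest increase. Both calls held in all 24 alternative settings, with differences between -3.25 and -2.74 and between 2.83 and 3.32.

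Between dKO XY and control XY gonads the Sox9 difference was -0.06 ± 0.23 (adjusted p = 0.859). Its 95% confidence interval ran from -0.55 to 0.44, that is, from 1.46-fold lower to 1.35-fold higher, so changes within these bounds are not excluded. The sign depended on the scaling: the difference was 0.51 after quantile normalization (adjusted p = 0.0937), 0.43 with signal contrast as a covariate and -0.32 after subtraction of each array's median. It passed the threshold in none of the 24 settings. Within groups, Sox9 deviated with signal contrast (r = 0.58 over 12 arrays, as a description; the median over all symbols was -0.208), and the 2 lowest dKO XY values, 9.94 and 10.04, were those of the arrays of lowest contrast. The part of signal contrast in the dKO XY value was not tested beyond these settings.

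Sox8 is needed in mice for lasting male fertility. It read 7.34, 7.52, 7.84 and 8.0 in control XY gonads. It read 7.17, 7.26, 7.24 and 7.22 in dKO XY gonads and 6.72, 6.59, 6.81 and 6.37 in control XX gonads. The 3 groups did not overlap, with dKO XY between the controls, as also for the Sertoli genes Ptgds, Cbln4, Vnn1, Cyp26b1 and Col9a3. The means of Sox9, Sox6 and Sox13 had the same order. The dKO XY arrays of Sox8 spanned only 0.04 (SD) against 0.30 in control XY and 0.19 in control XX. Control XX was lower than control XY by 1.05 ± 0.15 (2.08-fold, adjusted p = 0.00302), a call that held in all 24 settings. dKO XY differed from control XY by -0.45 ± 0.15 (1.37-fold lower, adjusted p = 0.0429). That call did not survive the loss of control XY 2, 3 or 4, dKO XY 1, 3 or 4, or control XX 1 or 2, with differences of -0.57 to -0.35 and adjusted p up to 0.119 when single arrays were left out. The difference was -0.53 with signal contrast as a covariate, -0.42 after quantile normalization and -0.72 after subtraction of each array's median, and the correlation of Sox8 with signal contrast within groups was -0.165. The step between dKO XY and control XX, 0.60 ± 0.15, did not pass the test (adjusted p = 0.21) although the arrays did not overlap. It passed in 1 of 24 settings, after quantile normalization (adjusted p = 0.0444). The part of Sertoli cells in the Sox8 values was not tested.

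Sox10, best known for its role in neural crest and glia, read 8.12, 8.22, 7.90 and 7.81 in control XY gonads. It read 8.04, 8.20, 8.18 and 8.15 in dKO XY gonads and 7.67, 7.43, 7.96 and 7.31 in control XX gonads. The XY groups overlapped, and only control XX 3 reached into the range of control XY. No comparison passed the test: the differences were -0.42 ± 0.15 for control XX against control XY (adjusted p = 0.156), 0.13 ± 0.15 for dKO XY against control XY (adjusted p = 0.477) and 0.55 ± 0.15 for dKO XY against control XX (adjusted p = 0.253, no overlap). Of 5 measured markers of neural crest and glia, none passed in any comparison, and their mean level was 6.41 to 6.57 in control XY, 6.57 to 6.61 in dKO XY and 6.27 to 6.55 in control XX arrays.

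**Figure D2:**
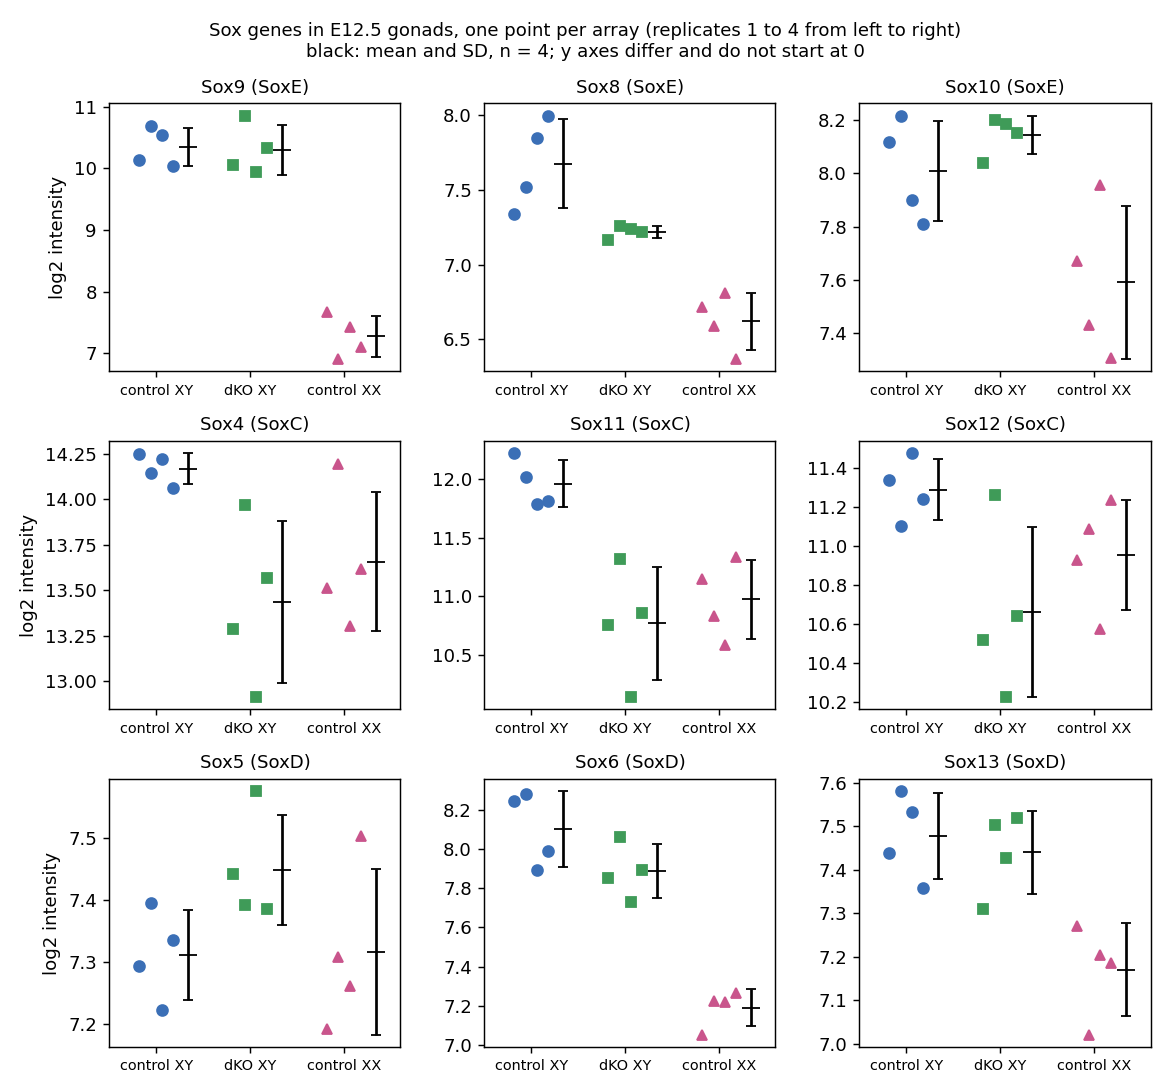
Log2 intensity of the 9 Sox genes on each array (points, replicates 1 to 4 from left to right within a group; vertical scales differ and do not start at 0), with the group mean and SD in black (n = 4). Control XX lies below both XY groups for Sox9, Sox8, Sox6 and Sox13, whereas Sox4, Sox11 and Sox12 are lowest on the array of dKO XY 3.

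The SoxC genes gave a different picture: all 3 were lower in dKO XY than in control XY gonads, and the means of control XX also lay below those of control XY, by a difference that passed the test for Sox11 alone. Sox4, needed in the mouse for heart and lymphocyte development, read 14.25, 14.14, 14.22 and 14.06 in control XY gonads. It read 13.29, 13.97, 12.91 and 13.57 in dKO XY gonads and 13.51, 14.19, 13.30 and 13.62 in control XX gonads. The 4 control XY arrays lay above all dKO XY arrays and above 3 of the 4 control XX arrays. The dKO XY difference was -0.73 ± 0.22 (1.66-fold lower, adjusted p = 0.035), and the control XX difference of -0.51 ± 0.22 did not pass (adjusted p = 0.21).

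Sox11, an activator in neural and mesenchymal progenitors, had the larger differences. It read 12.22, 12.02, 11.79 and 11.82 in control XY gonads. It read 10.75, 11.32, 10.14 and 10.85 in dKO XY gonads and 11.15, 10.83, 10.58 and 11.34 in control XX gonads. Control XY did not overlap with either other group, and these 2 overlapped with each other. dKO XY was lower than control XY by 1.19 ± 0.23 (2.29-fold, adjusted p = 0.0202), and control XX by 0.99 ± 0.23 (1.98-fold, adjusted p = 0.0499). The dKO XY call was lost without control XY 3, dKO XY 1 or dKO XY 3 (differences of -1.38 to -0.98 over the 12 left-out arrays, adjusted p up to 0.0675). The control XX call lay at the threshold and was lost without any 1 of 9 arrays: the 4 control XY arrays, dKO XY 1 and 4, and control XX 1, 2 and 3 (adjusted p up to 0.152).

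Sox12, whose loss alone leaves mice viable, read 11.34, 11.10, 11.47 and 11.24 in control XY gonads. It read 10.52, 11.26, 10.22 and 10.64 in dKO XY gonads and 10.93, 11.09, 10.58 and 11.23 in control XX gonads. The array of dKO XY 2 lay within the control XY range, so the groups overlapped. The dKO XY difference was -0.63 ± 0.21 (1.55-fold lower, adjusted p = 0.0423), and the control XX difference of -0.33 ± 0.21 did not pass (adjusted p = 0.33). The Sox12 call was lost without any 1 of 9 arrays (all 4 control XY, dKO XY 1, 3 and 4, control XX 1 and 2, adjusted p up to 0.124), and that of Sox4 without control XY 2, 3 or 4 or dKO XY 1, 3 or 4 (adjusted p up to 0.103). Between dKO XY and control XX gonads the SoxC differences were -0.22 (Sox4), -0.21 (Sox11) and -0.30 (Sox12), none past the test (adjusted p = 0.698, 0.73 and 0.596). The 95% confidence intervals ran from -0.70 to 0.26, from -0.71 to 0.30 and from -0.74 to 0.15.

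Within groups the SoxC genes deviated together and with signal contrast. The correlations of their deviations from the group means over 12 arrays were 0.816 for Sox4 with Sox12, 0.798 for Sox11 with Sox12 and 0.618 for Sox4 with Sox11. Those with signal contrast were 0.846 for Sox12, 0.792 for Sox4 and 0.676 for Sox11, against a median of -0.208 over all symbols. These are descriptions of 12 arrays that share groups and array quality. With signal contrast as a covariate, the dKO XY differences were -0.62 for Sox11, -0.10 for Sox4 and -0.01 for Sox12, and after quantile normalization they were -0.57, -0.27 and -0.01. Without dKO XY 1 and 3 they were -0.87, -0.40 and -0.34. Sox11 thus stayed below 0 at -0.87 to -0.57 in these 3 settings, while Sox12 came to -0.01 in 2 of them. No SoxC gene passed the threshold in any of the 3. The covariate setting called 0 of all clusters, and that without dKO XY 1 and 3 called 4. Markers of other cells of the testis also moved. Of the interstitial markers, both of those measured, Tcf21 and Nr2f2, were lower in dKO XY than in control XY gonads and Tcf21 in control XX gonads, with a mean level of 11.42 to 12.18 in control XY, 8.90 to 10.58 in dKO XY and 9.10 to 10.26 in control XX arrays. The dKO XY calls were -2.58 for Tcf21 (adjusted p = 0.0164) and -1.49 for Nr2f2 (adjusted p = 0.0222), and both were lost without control XY 3, dKO XY 1 or dKO XY 3, that of Nr2f2 also without control XY 4 (adjusted p up to 0.0625 and 0.0728). Of 4 measured fetal Leydig cell markers, all lay lower in dKO XY than in control XY gonads without overlap (median -1.46), and Cyp17a1 and Hsd3b1 passed the test (-2.39 and -1.95, adjusted p = 0.0237 and 0.0212). Both calls were lost without control XY 3, dKO XY 1 or dKO XY 3, that of Cyp17a1 also without control XY 4 (adjusted p up to 0.0682 and 0.0717). The mean level of the 4 markers was 7.82 to 9.73 in control XY, 6.70 to 7.19 in dKO XY and 6.49 to 7.67 in control XX arrays. Over all clusters, 9.8% were called lower in dKO XY than in control XY gonads, and 8.24% lay lower without overlap. The part of interstitial and fetal Leydig cells in the SoxC values was not tested.

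**Figure D3:**
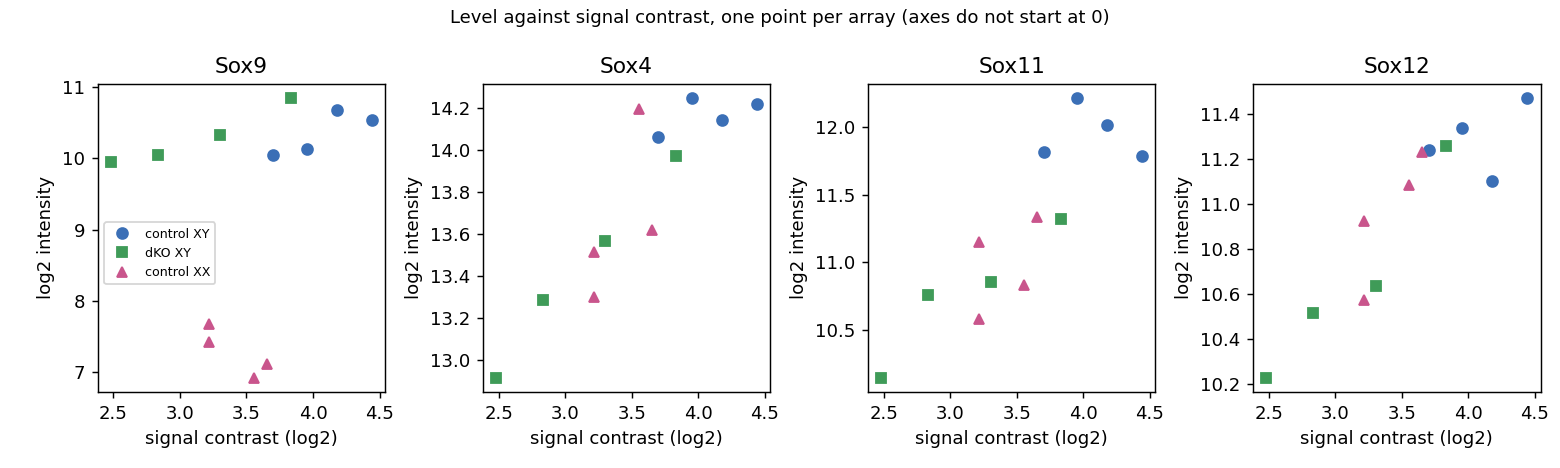
Log2 intensity of Sox9, Sox4, Sox11 and Sox12 against the signal contrast of the array (log2 scale, positive minus negative control probe sets), 1 point per array; axes do not start at 0. The SoxC genes are lowest on the array of dKO XY 3, which has the lowest contrast (2.48), and the control XY arrays lie at 3.70 to 4.44.

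**Figure D4:**
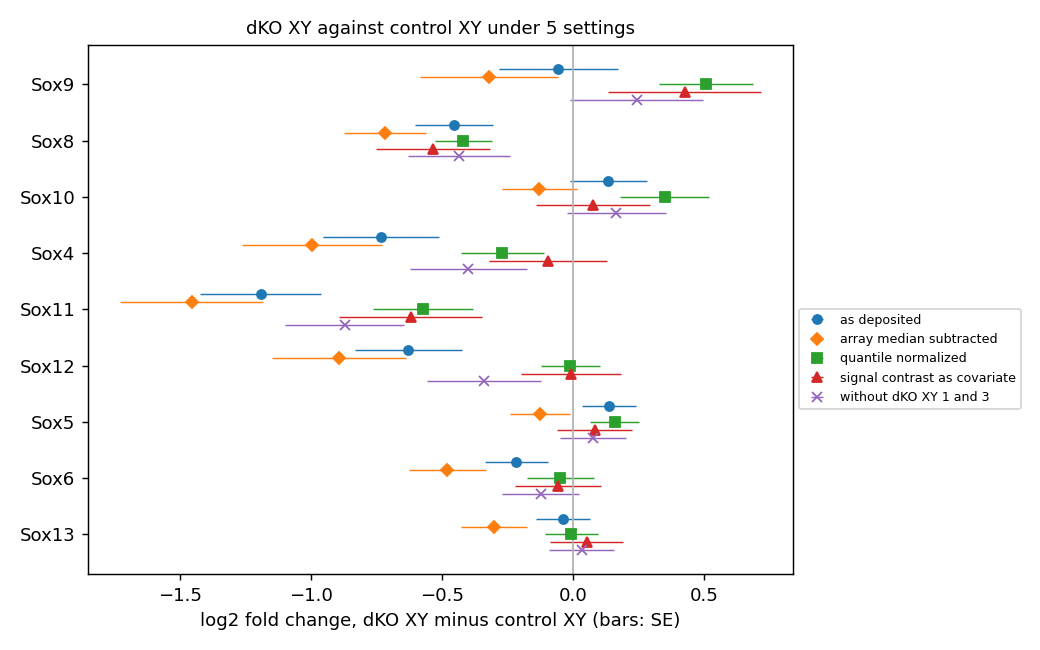
Log2 fold change of dKO XY against control XY for the 9 genes (points) with its SE (bars) for the values as deposited and 4 alternatives. Sox8 stays near its value as deposited except after median subtraction, Sox12 moves to -0.01 in 2 settings, and Sox9 lies between -0.32 and 0.51.

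The promoters of the SoxC genes are shown because these genes moved together. RefSeq promoters (GRCm38.p6) were at hand for 7 of the 9 genes, and the 250 bases before the start site are printed 5′ to 3′ on the gene's strand. Capitals mark each CCAAT box, searched as CCAAT on both strands (ATTGG on the strand shown where the box is reversed), which is the only motif in these 3 windows that all of them hold among the 8 searched. Sox4 lies on the minus strand (chr13:28953700-28953949), as do Sox11 (chr12:27342719-27342968) and Sox12 (chr2:152398047-152398296).
Sox4: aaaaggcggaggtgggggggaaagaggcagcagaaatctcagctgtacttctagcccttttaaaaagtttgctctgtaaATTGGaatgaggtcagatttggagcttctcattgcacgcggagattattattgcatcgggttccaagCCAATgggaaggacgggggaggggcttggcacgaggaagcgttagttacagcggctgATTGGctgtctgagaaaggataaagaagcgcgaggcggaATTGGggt
Sox11: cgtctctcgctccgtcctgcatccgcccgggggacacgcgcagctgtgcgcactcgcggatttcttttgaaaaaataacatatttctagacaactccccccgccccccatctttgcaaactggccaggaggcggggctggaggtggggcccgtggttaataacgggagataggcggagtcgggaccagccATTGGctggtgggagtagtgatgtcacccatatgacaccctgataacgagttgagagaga
Sox12: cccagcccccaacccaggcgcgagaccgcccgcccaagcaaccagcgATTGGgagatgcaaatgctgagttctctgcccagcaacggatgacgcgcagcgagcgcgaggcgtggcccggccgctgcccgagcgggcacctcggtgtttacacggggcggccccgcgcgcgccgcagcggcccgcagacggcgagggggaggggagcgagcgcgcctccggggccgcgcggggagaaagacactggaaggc
Sox4 held 4 CCAAT boxes and Sox11 and Sox12 held 1 each. Of 32851 promoter windows of the same length, 33.8% held at least 1 and 0.84% held 4 or more. The SMAD-binding letters CAGAC were in the Sox4 and Sox12 windows (1 match each) and in 42.2% of all windows, and GGGCGG, read by SP factors, was in those of Sox11 (2 matches) and Sox12 (3 matches) and in 32.7%. GC content was 50.8% for Sox4, 58% for Sox11 and 74.4% for Sox12, and the median of all windows was 52.4%. The SOX motifs AACAAT and ACAAAG (9.42% and 16.5% of all windows), GGCGCC (9.59%), AAGGTCA of NR5A1 (4.08%) and TATAAA (12.4%) had no match in the 3 windows. Such matches describe letters only.

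Of the SoxD genes, Sox6 differed between the sexes. It read 8.25, 8.28, 7.89 and 7.99 in control XY gonads. It read 7.85, 8.06, 7.73 and 7.89 in dKO XY gonads and 7.05, 7.23, 7.22 and 7.26 in control XX gonads. The XX arrays lay below all XY arrays, and the XY groups overlapped. Sox6 fell by 0.91 ± 0.12 in control XX against control XY gonads (1.88-fold, adjusted p = 0.00201), a call that held in all 24 settings. It was higher by 0.69 ± 0.12 in dKO XY than in control XX gonads (1.62-fold, adjusted p = 0.0423). This second call was lost with any array left out except control XY 3 (differences of 0.64 to 0.75, adjusted p up to 0.158). The dKO XY difference from control XY, -0.22 ± 0.12, did not pass (adjusted p = 0.173), with a 95% confidence interval of -0.48 to 0.05.

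Sox13, also known as an islet cell autoantigen in people, read 7.44, 7.58, 7.53 and 7.36 in control XY gonads. It read 7.31, 7.50, 7.43 and 7.52 in dKO XY gonads and 7.27, 7.02, 7.20 and 7.18 in control XX gonads. Its groups kept the arrangement of Sox6, with all XX arrays below all XY arrays, but neither the difference from control XY (-0.31 ± 0.10, adjusted p = 0.144) nor that of dKO XY from control XX (0.27 ± 0.10, adjusted p = 0.428) passed the test. Sox5, the partner of SOX6 in cartilage, read 7.29, 7.40, 7.22 and 7.34 in control XY gonads. It read 7.44, 7.39, 7.58 and 7.39 in dKO XY gonads and 7.19, 7.31, 7.26 and 7.50 in control XX gonads. All 3 groups of Sox5 overlapped, and its differences were 0.00 ± 0.10 (control XX against control XY, adjusted p = 0.98), 0.14 ± 0.10 (dKO XY against control XY, adjusted p = 0.303) and 0.13 ± 0.10 (dKO XY against control XX, adjusted p = 0.629).

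All 9 genes were above the highest background probe set on all 12 arrays. Above the 95th percentile of the negative control probe sets of the same array were Sox4 on 12 arrays, Sox11 on 11, Sox12 on 10, Sox9 on 3 and the other 5 genes on none. Values in the range of the negative controls can understate a difference.

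Among the genes that act on Sox9, 16 of 17 listed were measured, and 4 were called in control XX against control XY gonads. Of these, 3 were lower and 1 was higher, where 1.34% of all clusters were called lower and 0.608% higher. Fgf9, whose signal keeps Sox9 on in the XY gonad, fell by 1.27 ± 0.15 (adjusted p = 0.000619), and Nr5a1, the nuclear receptor that acts with SRY on Sox9, differed by -1.26 ± 0.25 (adjusted p = 0.0233). Igf1r, a receptor of the insulin family, differed by -0.97 ± 0.19 (adjusted p = 0.0197), whereas Fgfr2, the FGF9 receptor, was higher by 1.18 ± 0.17 (adjusted p = 0.00375). The Nr5a1 call was lost without control XY 2 or 3 or control XX 1, 2 or 3 (adjusted p up to 0.0775), and that of Igf1r without control XY 3 or 4 or control XX 2 or 3 (adjusted p up to 0.0776). In dKO XY against control XY gonads, 3 of the 16 were lower, Map3k4, Insr and Igf1r, and the Sry cluster was higher, while Fgf9 did not pass. Over all clusters, 9.8% were called lower there and 16.7% higher. The calls of Map3k4 and Insr were not followed with arrays left out. The median over the list was -0.39 in the first comparison and -0.12 in the second. Igf1r differed by -1.0 ± 0.19 in dKO XY gonads (adjusted p = 0.02), a call lost without control XY 3, dKO XY 1 or dKO XY 3 (adjusted p up to 0.0717). The Sry cluster read 10.46 to 11.30 in control XY, 12.18 to 12.63 in dKO XY and 10.84 to 12.23 in control XX gonads. As it was no lower in XX gonads, which carry no Sry, it was not read as the level of Sry.

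Of 14 Sertoli genes linked to SOX9 or SOX8, 10 were lower in control XX gonads than in control XY and none was higher (median -1.37). That comparison called 1.34% of all clusters lower. Cbln4, a secreted SOX9 target, fell by 2.91 ± 0.23 (adjusted p = 4.89e-05), Ptgds, the prostaglandin D synthase that feeds back on SOX9, fell by 3.89 ± 0.30 (adjusted p = 4.05e-05), and Cyp26b1, which degrades retinoic acid, fell by 1.72 ± 0.15 (adjusted p = 7.24e-05). In dKO XY against control XY gonads, where Sox9 itself differed by -0.06, 6 of the 14 were lower, Ptgds, Cbln4, Vnn1, Cyp26b1, Col9a3 and Cst9 (median -0.33). Fshr was called higher, 1 of 14. Over all clusters, 9.8% were called lower there and 16.7% higher. Fshr read 5.58 to 5.89 in control XY gonads, close to the highest background probe set (5.23 to 5.53). The calls of Vnn1, Col9a3 and Fshr were not followed with arrays left out. Ptgds differed by -2.62 ± 0.30 (adjusted p = 0.00635), a call kept with any 1 array left out. It was lost in 2 of 25 settings, among them signal contrast as a covariate. Cbln4 differed by -1.30 ± 0.23 (adjusted p = 0.0191) and Cyp26b1 by -0.43 ± 0.15 (adjusted p = 0.0486). The Cbln4 call was lost without control XY 3, dKO XY 1 or dKO XY 3 (adjusted p up to 0.0675), and that of Cyp26b1 without these, control XY 2 or 4, dKO XY 4 or control XX 1 or 2 (adjusted p up to 0.139). Against control XX gonads, 5 of the 14 were higher in dKO XY gonads, Fgf9, Cbln4, Cyp26b1, Cst9 and Aard (median 0.86). That comparison called 0.0895% of all clusters higher. The Fgf9 call was lost in 5 of 24 settings, among them without dKO XY 4 or control XX 2 (adjusted p up to 0.0618). That of Cbln4 was not followed with arrays left out. Cyp26b1 was higher there by 1.29 ± 0.15 (adjusted p = 0.00383) and Aard by 1.39 ± 0.18 (adjusted p = 0.00665).

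Of 10 measured ovarian genes that oppose Sox9, 6 were higher in control XX gonads than in control XY, Wnt4, Rspo1, Fst, Runx1, Axin2 and Esr1 (median 0.60). That comparison called 0.608% of all clusters higher. The calls of Rspo1, Axin2 and Esr1 were not followed with arrays left out. Foxl2, the granulosa cell factor that represses Sox9 in the adult ovary, read 4.53 to 4.77 in control XY, 4.80 to 5.36 in dKO XY and 4.80 to 5.24 in control XX gonads. It was above the highest background probe set on 0 of 4 control XY, 1 of 4 dKO XY and 1 of 4 control XX arrays, so no difference is given for it. In dKO XY against control XY gonads only Runx1, which maintains the identity of fetal granulosa cells, was called, higher by 0.63 (adjusted p = 0.0272), which is 1 of 10 where 16.7% of all clusters were called higher. That call was lost without control XY 2, 3 or 4 or dKO XY 1 or 3 (adjusted p up to 0.085). Against control XX gonads, Wnt4 and Fst were lower in dKO XY gonads, 2 of 10 where 0.126% of all clusters were called lower. These 2 calls were not followed with arrays left out.

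Of 6 measured SoxC partners and targets, none was called between the control groups (median -0.06). In dKO XY against control XY gonads Tcf4, a bHLH factor, differed by -0.74 ± 0.18 (adjusted p = 0.0232), and Dcx, a microtubule protein of migrating neurons, was higher by 0.68 ± 0.19 (adjusted p = 0.0294). That is 1 of 6 lower and 1 of 6 higher, where 9.8% of all clusters were called lower and 16.7% higher. Dcx read 5.51 to 5.98 in control XY gonads, close to the highest background probe set (5.23 to 5.53). The Tcf4 call was lost without control XY 3 or 4 or dKO XY 1 or 3 (adjusted p up to 0.0766), and that of Dcx without these or control XY 2 (adjusted p up to 0.0901). Of 11 further Sox genes, Sox7 and Sox18, both of endothelial cells, were lower in dKO XY gonads by 0.68 and 0.57 (adjusted p = 0.0367 and 0.0241), besides the Sry cluster above. Sox7 was above the highest background probe set on 4 of 4 control XY arrays but on 1 of 4 dKO XY arrays, so the size of its difference is uncertain. Without control XY 3 or 4 or dKO XY 1 or 3 both calls were lost, that of Sox7 also without control XY 2 or dKO XY 4 (adjusted p up to 0.0995 for Sox7 and 0.0764 for Sox18). Of 6 endothelial markers, 3 were lower in dKO XY gonads (median -0.56), where 9.8% of all clusters were called lower. They were Cdh5, Kdr and Tek. The Cdh5 call was lost without control XY 3 or 4 or dKO XY 1 or 3 (adjusted p up to 0.0778). Those of Kdr and Tek were not followed with arrays left out. The mean level of the 6 markers was 8.62 to 9.06 in control XY, 7.85 to 8.60 in dKO XY and 7.98 to 8.47 in control XX arrays. The part of endothelial cells in the Sox7 and Sox18 values was not tested. Sox18 was also called between the control groups (-0.62, adjusted p = 0.0445, lost without any 1 of 10 arrays). It was above the highest background probe set on 2 of 4 control XX arrays, so the size of this difference is uncertain.

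The genes whose levels ran most like those of the Sox genes over the 12 arrays were sought among 18302 named genes, by Pearson correlation and as a description. Sox9 was followed most closely by Cst9 (r = 0.98), Dock10 (0.978), Fgf9 (0.972), Phgdh (0.97) and Gstm1 (0.966). Cst9, a Sertoli cell cystatin, was lower in control XX gonads by 10.60 ± 0.41 (adjusted p = 9.59e-08) and in dKO XY gonads by 1.87 ± 0.41 (adjusted p = 0.022, lost without control XY 2 or 3 or dKO XY 1 or 3, adjusted p up to 0.0728). Sox8 was followed by Ppargc1a (0.976), Agpat4 (0.969), Adhfe1 (0.96), Itga4 (0.955) and Rab20 (0.955), and Sox6 by Mme (0.958), Fgf9 (0.957), Akr1b8 (0.954), Cst9 (0.946) and Gstm1 (0.94).

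The closest genes to the SoxC genes were others. Sox4 was followed by Gtf2h5 (r = 0.97), Naxe (0.966), Tm9sf2 (0.963), Selenos (0.961) and Chic2 (0.961), Sox11 by Tmpo (0.965), Lman1 (0.956), Atp2a2 (0.955), Tm9sf3 (0.955) and Itgav (0.954), and Sox12 by Serf2 (0.981), Crebbp (0.977), Eml4 (0.974), Ryk (0.97) and Ulk2 (0.97). None of these 15 is a Sertoli gene of the lists used, whereas Cst9 and Fgf9, among the closest to Sox9 and Sox6, are. On deviations from the group means the SoxC neighbours had r of 0.832 to 0.973, those of Sox8 0.759 to 0.867, those of Sox9 0.413 (Gstm1) to 0.864 (Dock10), and those of Sox6 0.124 (Cst9) to 0.795 (Mme).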

How the data were processed

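Gonads of E12.5 mouse embryos were measured on 12 Clariom D arrays, 4 per group (control XY, control XX and dKO XY). Per the study's methods, RNA was amplified before hybridization. The stage is that of the sample labels, although the study's data statement lists this series under the later of its stages. The study calls the samples biological replicates, but the labels name no animals, so the spread between samples, which may be technical, is what p-values measure. In the deposited table are the log2 intensities of 72688 probe sets, which the authors' methods describe as RMA-normalized for their tests. Which background correction gave the table is not given in the sources used here.

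Values were used as deposited, without a filter. Of 65956 transcript clusters, 30638 carried 1 gene symbol, 2176 several and 33142 none (platform annotation), and for each of 30176 symbols the brightest cluster was taken. Arrays of the same group correlated at 0.974 to 0.992, and none held identical values. limma 3.58.1 in R 4.3.3 (lmFit, eBayes, 3 group means, all 12 arrays) gave each comparison, with Benjamini-Hochberg adjustment over all clusters and a threshold of 0.05. The fit was tested on simulated data. Plots used matplotlib 3.10.9 in Python 3.11.15. Genes were named by rule: the 9 Sox genes, Amh and Inhbb, Sry, Fgf9 and Foxl2, listed genes past the test, and the 5 genes most like each Sox gene. The last did not include predicted genes, clone names, small RNAs or pseudogenes. The Sox genes and lists were chosen with earlier results of these data known. The Amh cluster and the Inhbb cluster may read exons outside the deleted parts. The scaling, covariate, left-out arrays, block, filters and variance model were varied, and 2 further filters were chosen after seeing the data.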

Additional observations from a re-analysis of the deposited data

How the results depend on the processing

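The count of the 9 Sox genes called in control XX against control XY gonads, 4, stayed at 3 or 4 in the settings tried. The count for dKO XY against control XY, also 4, fell to 0 with signal contrast as a covariate, after quantile normalization and without both dKO XY 1 and dKO XY 3, to 1 with an unmoderated variance and to 2 with only the 8 arrays compared or with control probe sets in the table. With the covariate 0 of all clusters were called, Amh among those lost, and without both dKO XY arrays 4 were called. With single arrays left out the count of Sox genes was 0 to 4. The count for dKO XY against control XX, 2, was 1 after median subtraction, with only the 8 arrays compared, without both dKO XY 1 and dKO XY 3, with control probe sets, with an unmoderated variance and with an intensity trend, and 1 to 2 with single arrays left out. The replicate numbers did not pair the samples (correlations of same-numbered arrays -0.406 to 0.369). With the replicate number as a block, the 3 counts were 4, 2 and 1.

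Signs turned only in differences that did not pass the test. For control XX against control XY, Sox5 was -0.014 (quantile), -0.17 (median), -0.032 (covariate), -0.067 (array weights) and -0.058 to 0.046 with single arrays left out, and Sox12 was 0.10 (covariate). For dKO XY against control XY, Sox9 was 0.51 (quantile), 0.43 (covariate), 0.24 (without both dKO XY arrays) and -0.24 to 0.060 with single arrays left out, Sox13 was 0.053, 0.034 and -0.077 to 0.0060 in the last 3 of these, and Sox10 and Sox5 were both -0.13 (median). For dKO XY against control XX, Sox11 was 0.13 (quantile), 0.11 (without both) and -0.39 to 0.0035 with single arrays left out, Sox12 was 0.040 (quantile) and Sox4 was 0.11 (without both). The cause was not tested. All clusters shifted by a median of 0.17 in dKO XY as deposited and by -0.09 after median subtraction.

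A filter at the 95th percentile of the negative controls kept 5574 clusters and, of the Sox genes, Sox4, Sox11 and Sox12, so no count over the 9 genes was made under it. The 2 filters chosen after seeing the data kept all 9 genes and 4 calls in dKO XY against control XY. The number of arrays limits the precision.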
